A study of Mus musculus with 5 samples.

Results

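Transcripts of fibroblast growth factor 18 (Fgf18), of the FGF carrier Fgfbp1 and of the FGF receptors Fgfr1, Fgfr2 and Fgfr3 were followed in B9 cells, mouse cells derived from cutaneous squamous cell carcinoma, with the genotype HRAS-Q61L. These 5 genes, of 18193 with a probe set of their own on the array, were taken by symbol, with all 10 of their probe sets out of 45101. They were chosen with earlier results of these same arrays known. Which of the 3 comparisons they were selected on is not recorded, so all 3 are treated as used. Signals, differences, ranks and calls of the members stand here as a description and support nothing. The cells, which all carry the HRAS change, received 1 µM vemurafenib (PLX4032) on 2 arrays, 1 µM PLX7904 on 2 arrays and the vehicle DMSO on 1 array, each for 17 h. Vemurafenib inhibits mutant BRAF and can activate the MAPK pathway where RAS is mutant, whereas PLX7904 belongs to a class of BRAF inhibitors designed not to do so. The labels give the vehicle as 0.2% DMSO, while the stated volumes of stock and medium come to 0.02%. They call the arrays biological replicates without naming separate cultures, and p-values thus cover the spread among arrays, which may be technical. Whether the line is 1 clone is not stated in the labels.

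FGFs are secreted ligands that bind a receptor tyrosine kinase together with heparan sulfate, and the receptor then signals through the adaptor FRS2, RAS and ERK. FGF18 is a ligand of FGFR3 and of other receptors, and in mouse skin it is known as a product of the resting hair follicle that holds it in the resting phase. FGFBP1 is a secreted carrier that frees FGFs bound to matrix, and Fgfr2 and Fgfr3 are the receptors best known from keratinocytes.

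Median signals of the 5 arrays lay between 44.1 and 51.9, and log2 signals of the replicate arrays correlated at r = 0.990 for vemurafenib and 0.989 for PLX7904 across genes, which are not independent replicates. The number of arrays limits the precision, and the spread of DMSO, with 1 array, was taken from the treated groups. All 8 keratinocyte and epithelial markers (Krt5, Krt14, Krt8, Krt18, Trp63, Epcam, Cdh1 and Itgb4) passed the filter on signal (a mean of 47.4 or more, which is the median of all deposited values). Their summed signal was 95222 and 93697 with vemurafenib, 85556 and 82484 with PLX7904 and 78265 with DMSO. The markers did not all move the same way. Krt18 read 23791 and 23145 with vemurafenib and 14452 with DMSO, and Krt14, Krt8, Trp63, Epcam and Itgb4 were also higher than with DMSO. Krt5 (10583 and 10654 with vemurafenib, 12250 with DMSO) and Cdh1 (4571 and 4131, against 5023) were lower. Of the fibroblast, melanocyte, immune and endothelial markers, 1 in each list passed the filter (Pdgfra, Mitf, Cd68 and Pecam1). The 7 fibroblast markers summed to 405 and 385 with vemurafenib, 200 and 247 with PLX7904 and 166 with DMSO, most of it Pdgfra, while Col1a1, Col1a2, Dcn, Lum, Pdgfrb and Thy1 lay below the filter. The part of these marker shifts in the results on FGF genes was not tested. In lysates of whole cultures, fewer cells with a transcript and less of it per cell cannot be told apart.

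Fgf18 is the member whose signal differed most between vemurafenib and DMSO, and the 250 bases before its RefSeq start are shown for that reason. The window lies on the minus strand of build GRCm38.p6 at chr11:33147401-33147650, and capitals mark the only match to the motifs searched, a GC box (GGGCGG or its reverse complement) that begins 174 bases before the start.
Fgf18: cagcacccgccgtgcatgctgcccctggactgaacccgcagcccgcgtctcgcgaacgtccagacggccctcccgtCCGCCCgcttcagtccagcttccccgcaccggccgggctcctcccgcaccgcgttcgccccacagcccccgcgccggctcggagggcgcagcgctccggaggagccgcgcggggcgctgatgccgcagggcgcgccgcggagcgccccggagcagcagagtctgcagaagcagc
G and C make up 77.2% of it, with 37 CpG dinucleotides, against medians of 52.4% and 6 over 32851 such windows. A GC box occurs in 32.7% of all windows. The AP-1 motif TGANTCA (6.75% of windows), the ETS core CGGAAG (13.6%) and the E-box CACGTG (6.02%) were not found on either strand, which says only that these letters are not in this window.

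Fgf18 was higher with vemurafenib. Its probe set (1449545_at) read 776 and 682 with vemurafenib, 165 and 176 with PLX7904 and 217 with DMSO. Both vemurafenib arrays lay above the other 3 arrays and both PLX7904 arrays below DMSO, with no overlap between any groups. On the log2 scale of signal plus a pseudocount of 3.34, the difference between vemurafenib and DMSO was 1.73 (SE 0.17), a 3.32-fold change. It ranked 23rd from the highest of 10852 genes tested. Between vemurafenib and PLX7904 the difference was 2.07 (SE 0.14), or 4.21-fold, and ranked 2nd from the highest. PLX7904 and DMSO were the neighbours in the order of levels, at a difference of -0.34 (SE 0.17), or 1.27 times lower with PLX7904. That gap exceeded the spread of the PLX7904 arrays (SD 7.89 around a mean of 170 in signal), but DMSO has no spread of its own to set it against.

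**Figure D1:**
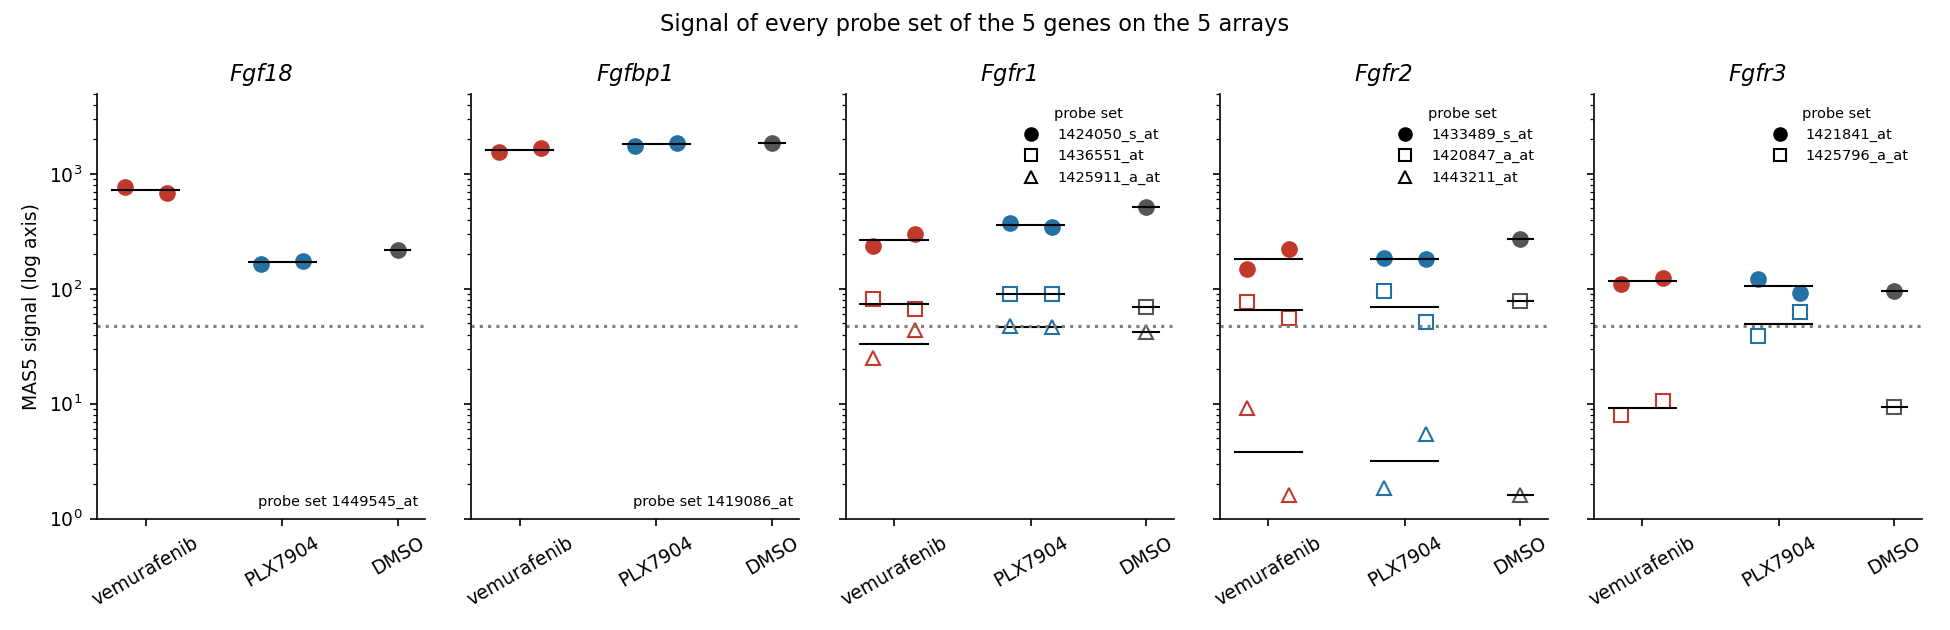
MAS5 signal (log axis) of the 10 probe sets of Fgf18, Fgfbp1, Fgfr1, Fgfr2 and Fgfr3 on the 2 vemurafenib arrays (red), the 2 PLX7904 arrays (blue) and the DMSO array (grey). Filled symbols are the probe set used for the gene, open symbols the others, short bars the geometric mean of a group and the dotted line the filter at a signal of 47.4. Fgf18 reads 776 and 682 with vemurafenib, above the other arrays, and Fgfr1 reads highest with DMSO, at 513.

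Fgfbp1, the carrier, differed little between the groups. Its 1 probe set (1419086_at) read 1560 and 1677 with vemurafenib, 1748 and 1854 with PLX7904 and 1862 with DMSO. The vemurafenib arrays were the lowest and DMSO the highest, and the PLX7904 arrays lay in between without overlap. The log2 difference was -0.20 (SE 0.10) between vemurafenib and DMSO, -0.05 (SE 0.10) between PLX7904 and DMSO and -0.15 (SE 0.08) between vemurafenib and PLX7904. Centring each array on its median, which moved the median of all genes by 0.15 in both comparisons of vemurafenib, left -0.05 and -0.01 for Fgfbp1 with vemurafenib against DMSO and against PLX7904.

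Among the receptors, Fgfr1 was lower with vemurafenib than with DMSO at the probe set with the highest signal. That set (1424050_s_at) read 234 and 298 with vemurafenib, 374 and 348 with PLX7904 and 513 with DMSO. The groups did not overlap, with vemurafenib lowest and DMSO highest. The log2 difference was -0.95 (SE 0.18) between vemurafenib and DMSO, or 1.93 times lower, and -0.50 (SE 0.18) between PLX7904 and DMSO. Between the 2 compounds it was -0.44 (SE 0.15), which became -0.27 without vemurafenib replicate 1 and -0.62 without vemurafenib replicate 2. The suffix s marks a probe set that may match several transcripts.

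The other probe sets of Fgfr1 did not repeat its order. One (1436551_at) read 81.4 and 66.4 with vemurafenib, 91.0 and 89.7 with PLX7904 and 69.9 with DMSO. Here PLX7904 was the highest group and vemurafenib overlapped DMSO, at log2 differences of 0.07 (SE 0.39) between vemurafenib and DMSO and 0.35 (SE 0.39) between PLX7904 and DMSO. The other (1425911_a_at), below the filter, read 24.9 and 43.7 with vemurafenib, 47.0 and 46.6 with PLX7904 and 42.2 with DMSO. At all 3 probe sets both vemurafenib arrays were below both PLX7904 arrays. At these dimmer sets, however, the log2 differences between the compounds were smaller than their errors. They were -0.28 (SE 0.32) at 1436551_at and -0.46 (SE 0.49) at 1425911_a_at. The vemurafenib arrays also had lower median signals (44.1 and 44.5) than the PLX7904 arrays (47.0 and 51.9). How often such an order occurs over all probe sets was not tested.

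Fgfr2, whose epithelial splice form binds FGFs made by the dermis, was highest on the DMSO array at its main probe set. That set (1433489_s_at) read 149 and 224 with vemurafenib, 184 and 182 with PLX7904 and 271 with DMSO. The compounds overlapped each other, and all 4 of their arrays lay below DMSO. The log2 difference was -0.56 (SE 0.26) between vemurafenib and DMSO and -0.55 (SE 0.26) between PLX7904 and DMSO, and 0.00 (SE 0.21) between the compounds. The vemurafenib value rests on unlike replicates, at -0.27 without replicate 1 and -0.84 without replicate 2. A second set (1420847_a_at) read 76.4 and 55.2 with vemurafenib, 95.9 and 51.1 with PLX7904 and 78.2 with DMSO, so that the PLX7904 arrays spanned all others. The remaining one (1443211_at) read at most 9.14 on any array.

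Fgfr3, a receptor that FGF18 binds, showed no difference larger than its error at the probe set with the higher signal. That set (1421841_at) read 111 and 125 with vemurafenib, 121 and 92.1 with PLX7904 and 95.5 with DMSO. Vemurafenib lay above DMSO and overlapped PLX7904, with log2 differences of 0.29 (SE 0.31) between vemurafenib and DMSO, 0.14 (SE 0.31) between PLX7904 and DMSO and 0.15 (SE 0.26) between the compounds. The second set (1425796_a_at) was below the filter and read 7.94 and 10.5 with vemurafenib, 38.6 and 63.4 with PLX7904 and 9.39 with DMSO. There the PLX7904 arrays stood above the other 3, at a log2 difference of -2.08 (SE 0.60) between vemurafenib and PLX7904. Whether the spread of such dim signals between arrays accounts for this difference was not tested. The reference gene table also lists a pseudogene, Fgfr3-ps, and whether these probes match it was not tested.

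**Figure D2:**
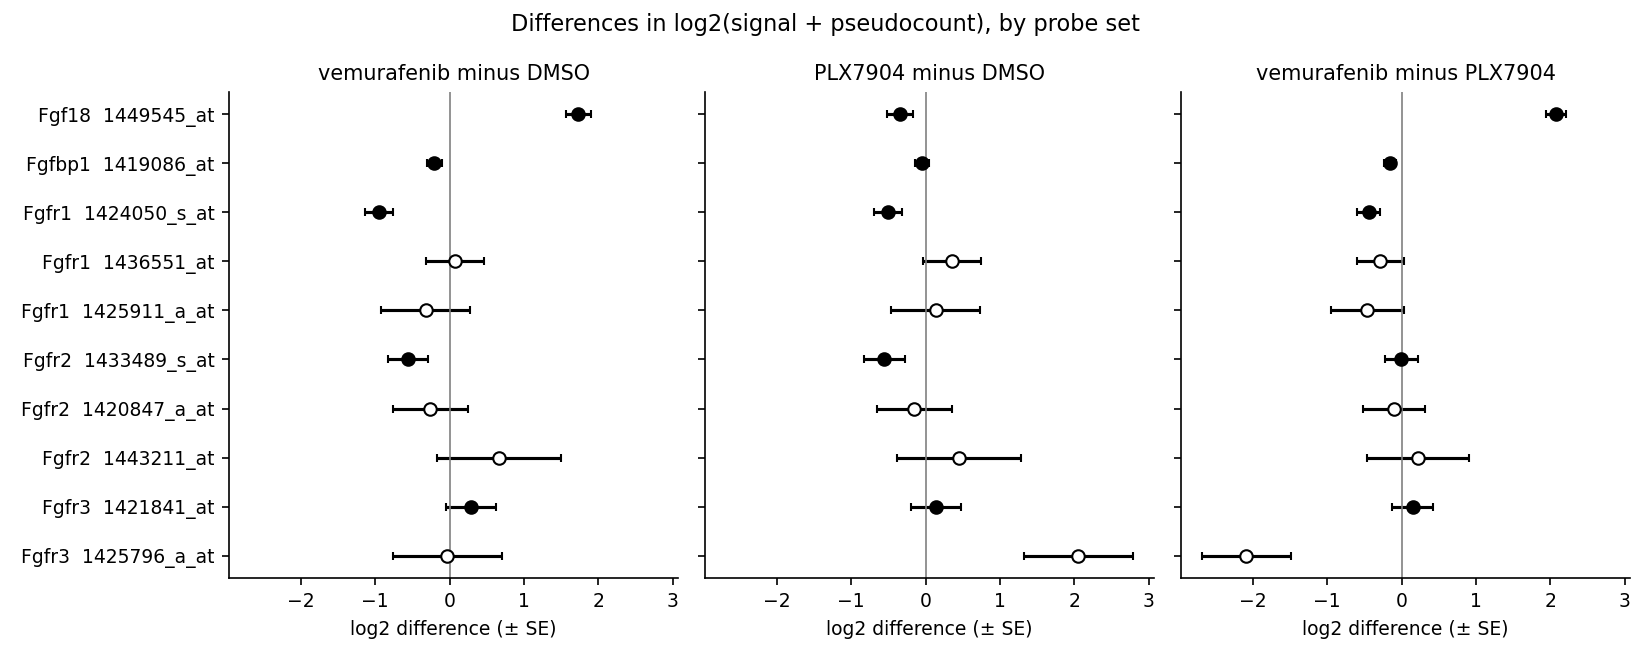
Log2 difference of each probe set (filled where used for the gene, open otherwise) in the 3 comparisons, with its standard error from a fit over all probe sets with 1 gene symbol. Fgf18 stands apart at 1.73 between vemurafenib and DMSO and at 2.07 between the compounds, while the probe sets of Fgfr1 lie on both sides of 0 between PLX7904 and DMSO.

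All 5 members passed the filter on signal and were tested in the fit over all genes. Fgf18 (higher) and Fgfr1 (lower) passed at an adjusted p under 0.05 between vemurafenib and DMSO, where 10.6% of all genes passed, 5.43% higher and 5.21% lower. With median centring 77.7% of the genes called were higher, in place of 51%. Fgf18 alone passed between vemurafenib and PLX7904, where 13.3% of all genes passed (6.43% higher and 6.87% lower, and 80% of calls higher with median centring in place of 48.4%). Between PLX7904 and DMSO no member passed, and 0% of all genes did (limma called 0, with 722 at an unadjusted p under 0.05 and 3 called with robust fitting). Since the members were chosen with these comparisons known, nothing is read from these counts. The median log2 difference of the 5 members was -0.20 between vemurafenib and DMSO (all genes: -0.05), -0.34 between PLX7904 and DMSO (all genes: -0.01) and 0.00 between the compounds (all genes: -0.04). The comparisons share arrays: the first pair share the DMSO array, and each compound enters a pair of comparisons.

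Genes around these members were taken from 6 lists with 74 genes, the 5 members left out. The lists, like the members, were chosen with earlier results of these arrays known. The shares called are thus a description and no evidence of enrichment, and the adjusted p of list genes do not allow for that choice. Of the 74 genes, 71 had a probe set of their own and 52 passed the filter. Between vemurafenib and DMSO 4 rose and 2 fell (11.5% of 52, against 10.6% of all genes), at a median log2 difference of -0.03. Between vemurafenib and PLX7904 6 were higher and 6 lower (23.1%, against 13.3%), at a median of -0.02, and between PLX7904 and DMSO 0 passed, at a median of 0.00. With median centring the split between the compounds was 9 higher and 2 lower, with 8 of the 12 genes kept and Esrp1, Ext2, Gpc1 and Hs6st1 no longer called. When the variance was not modelled on intensity, Spry2 against DMSO was the only list gene called, among 43 genes, and 0 list genes were called between the compounds, among 35.

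Other FGF ligands had low signals. All 17 listed had a probe set, and 3 of them, Fgf4, Fgf9 and Fgf15, passed the filter. None of the 3 passed in any comparison. Over all genes 10.6% passed between vemurafenib and DMSO, 0% between PLX7904 and DMSO and 13.3% between the compounds. Fgf4, a ligand of the early embryo, read 74.0 and 99.1 with vemurafenib, 54.5 and 96.1 with PLX7904 and 120 with DMSO, a log2 difference of -0.47 (SE 0.41) between vemurafenib and DMSO. Fgf15, the mouse counterpart of human FGF19, had a difference of 0.31 (SE 0.51). At their brightest probe sets, Fgf2 read at most 21.2 and Fgf7, the ligand of epithelial FGFR2, at most 44.4 on any array.

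Of 6 other receptors and co-receptors tested, 1 rose and 1 fell with vemurafenib in both of its comparisons (33.3%). Over all genes 10.6% passed against DMSO and 13.3% against PLX7904. Both receptor genes called encode membrane proteins with leucine-rich repeats that bind FGF receptors. Flrt3 read 7115 and 7254 with vemurafenib, 5278 and 5575 with PLX7904 and 5269 with DMSO, and rose 1.36-fold against DMSO (95% interval 1.21 to 1.54, limma adjusted p = 0.0059). Flrt2 read 3581 and 3740 with vemurafenib, 6400 and 6116 with PLX7904 and 6881 with DMSO, and was 1.88 times lower than with DMSO (1.66 to 2.13, limma adjusted p = 1.09e-04). In both genes the vemurafenib arrays stood apart from the other 3. With the mean of its probe sets Flrt3 had a log2 difference of 0.29 against DMSO, and that call ended. Against PLX7904, Flrt3 was 1.32-fold higher (1.20 to 1.46) and Flrt2 1.71 times lower (1.54 to 1.89). Fgfrl1, a receptor without a kinase domain, had a log2 difference of 0.24 (SE 0.12) between vemurafenib and DMSO and did not pass.

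Feedback and target genes of FGF signalling had 2 of 8 tested higher with vemurafenib in both of its comparisons (25%). Over all genes 5.43% were called higher against DMSO and 6.43% against PLX7904. Both feedback genes called are also induced by RAS and ERK downstream of other receptors. Spry2, an inhibitor of receptor tyrosine kinase signalling, read 1729 and 1885 with vemurafenib, 960 and 1041 with PLX7904 and 571 with DMSO. It rose 3.15-fold against DMSO (95% interval 2.63 to 3.77, limma adjusted p = 3.01e-05) and was 1.80-fold higher than with PLX7904 (1.56 to 2.09, limma adjusted p = 3.97e-04). Dusp6, an ERK phosphatase, rose 1.44-fold against DMSO and was 1.24-fold higher than with PLX7904, a call that ended without vemurafenib replicate 2 (log2 0.29). Etv4 and Etv5, transcription factors that FGF signals induce, had log2 differences of 0.27 (SE 0.16) and -0.19 (SE 0.14) between vemurafenib and DMSO and did not pass. The mean of all probe sets of Spry2 gave a log2 difference of 1.03 against DMSO, still past the threshold, and of 0.37 between the compounds, where the call ended.

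Signal relay genes between receptor and RAS had none of 11 tested past the threshold between vemurafenib and DMSO (0%, against 10.6% of all genes). Between the compounds 2 were higher with vemurafenib (18.2%, against 13.3% of all genes, 6.43% higher). They were the adaptors Grb2 (1.41-fold, 95% interval 1.22 to 1.62, limma adjusted p = 0.00641) and Crk (1.20-fold, 1.08 to 1.33, limma adjusted p = 0.0318). Crk's difference turned to -0.03 on the log2 scale with the mean of its probe sets, and Grb2's was 0.29 and did not pass. The Crk call also ended without either vemurafenib array and without PLX7904 replicate 1. Frs2, Etv1 and Ndst1 were not analysed here.

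**Figure D3:**
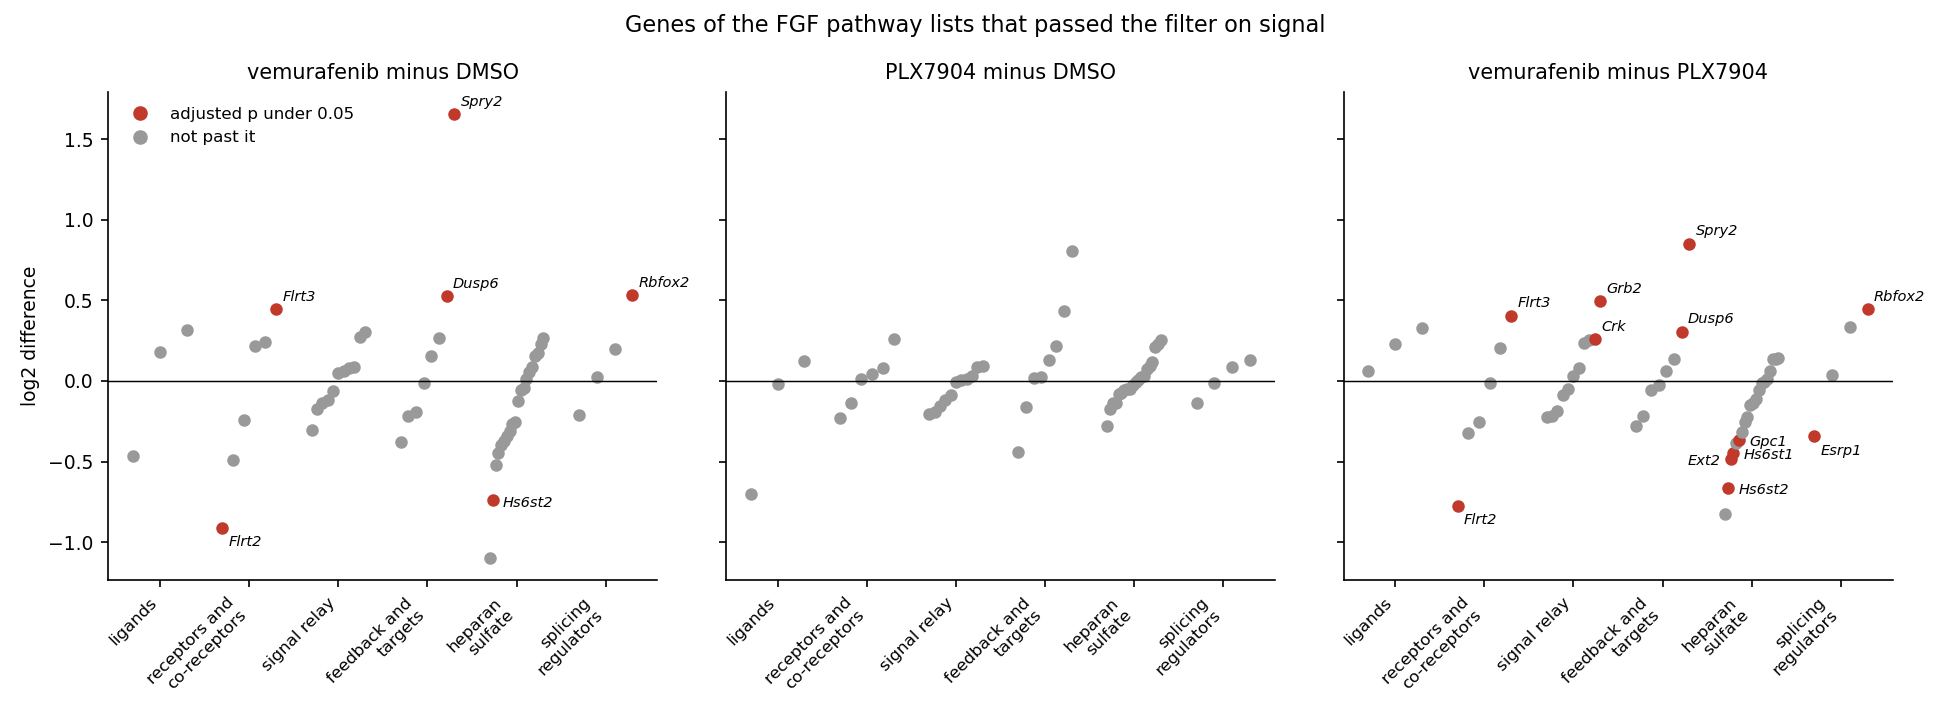
Log2 difference of the 52 listed genes that passed the filter, by list, in the 3 comparisons. Red points have a limma adjusted p under 0.05 over all genes and are named, 6 between vemurafenib and DMSO, 0 between PLX7904 and DMSO and 12 between vemurafenib and PLX7904, with Spry2 highest and Flrt2 lowest among them in the first.

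Heparan sulfate genes had 1 of 20 tested past the threshold between vemurafenib and DMSO (5%, against 10.6% of all genes, 5.21% lower). Between the compounds 4 of 20 passed (20%, against 13.3% of all genes, 6.87% lower). All of these were lower with vemurafenib. Hs6st2, which adds sulfate at the 6-O position of heparan sulfate, read 1567 and 1448 with vemurafenib, 2295 and 2491 with PLX7904 and 2519 with DMSO. It was 1.67 times lower than with DMSO (95% interval 1.42 to 1.96, limma adjusted p = 0.00187) and 1.59 times lower than with PLX7904 (1.39 to 1.81). With the mean of its probe sets the call against DMSO ended, at a log2 difference of -0.81, and the difference between the compounds was -1.12, still past the threshold. The other 3 were its relative Hs6st1 (1.36 times lower than with PLX7904), the chain polymerase subunit Ext2 (1.40 times) and the glypican Gpc1 (1.29 times), with limma adjusted p of 0.0299, 0.0299 and 0.0234. Each of these 3 calls ended with median centring and without vemurafenib replicate 1, those of Hs6st1 and Gpc1 also without PLX7904 replicate 1 and that of Ext2 without PLX7904 replicate 2. The list's median was -0.19 between vemurafenib and DMSO (all genes: -0.05).

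Of the 4 regulators of FGF receptor splicing, Rbfox2 rose with vemurafenib and Esrp1 was lower than with PLX7904. The share called was 25% against DMSO (all genes: 10.6%) and 50% between the compounds (all genes: 13.3%), in a list of 4. Rbfox2 read 570 and 540 with vemurafenib, 398 and 415 with PLX7904 and 382 with DMSO, a 1.45-fold rise against DMSO (95% interval 1.16 to 1.80, limma adjusted p = 0.0391). Esrp1, which favours the epithelial forms of the receptors, read 2137 and 2589 with vemurafenib, 3077 and 2889 with PLX7904 and 2719 with DMSO. It was 1.27 times lower than with PLX7904 (1.09 to 1.47, limma adjusted p = 0.0422), and its difference from DMSO of -0.21 (SE 0.12) did not pass. The Rbfox2 call against DMSO ended in 7 of 16 alternatives, leaving out either vemurafenib array and the replicate block among them. Against PLX7904 Rbfox2 was 1.36-fold higher, a call that ended in 8 of 17. The Esrp1 call ended in 7 of 17, at a log2 difference of -0.20 without vemurafenib replicate 1, -0.30 without PLX7904 replicate 1 and -0.39 without PLX7904 replicate 2. Which splice forms of the receptors the probe sets match was not tested.

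With PLX7904 against DMSO none of the 52 genes passed (all genes: 0%). The smallest adjusted p was that of Spry2 (limma adjusted p = 0.1, log2 difference 0.80, SE 0.12). This difference passed with median centring (log2 0.81) and, at 0.80, without either vemurafenib array or without probe sets of suffix x, s or a. Dusp6 (log2 0.22, SE 0.07), Flrt3 (0.04, SE 0.08), Flrt2 (-0.14, SE 0.08), Crk (0.01, SE 0.08), Ptpn11 (-0.01, SE 0.08), Sdc1 (-0.06, SE 0.07) and Esrp1 (0.13, SE 0.12) were among those that did not pass.

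The genes with profiles closest to those of Fgf18 and Fgfr1, the members whose log2 values spanned more than 1 over the arrays, were found by the root mean square difference of log2 values over the 5 arrays, each gene centred on its own mean. For Fgf18 they were Prl8a1, a prolactin-family hormone, at 0.19, and the interferon-inducible p200-family genes Ifi202b at 0.20 and Ifi209 at 0.24, against a median of 1.00 over all genes. Ifi202b read 6169 and 5950 with vemurafenib, 1953 and 1854 with PLX7904 and 1867 with DMSO. Prl8a1 read 276 and 271 with vemurafenib, 73.9 and 91.6 with PLX7904 and 84.5 with DMSO. In these as in Fgf18 the vemurafenib arrays stood far above the rest, but neither had both PLX7904 arrays below DMSO. For Fgfr1 the closest were Col22a1, a collagen chain, at 0.04, Tbc1d8, at 0.07, and the Wnt receptor Fzd2, at 0.07, against a median of 0.37. Fzd2 read 159 and 186 with vemurafenib, 240 and 230 with PLX7904 and 303 with DMSO. The likeness rests on 5 arrays and is a description. These genes were picked for the smallest values, so lying below the median follows from that choice.

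**Figure D4:**
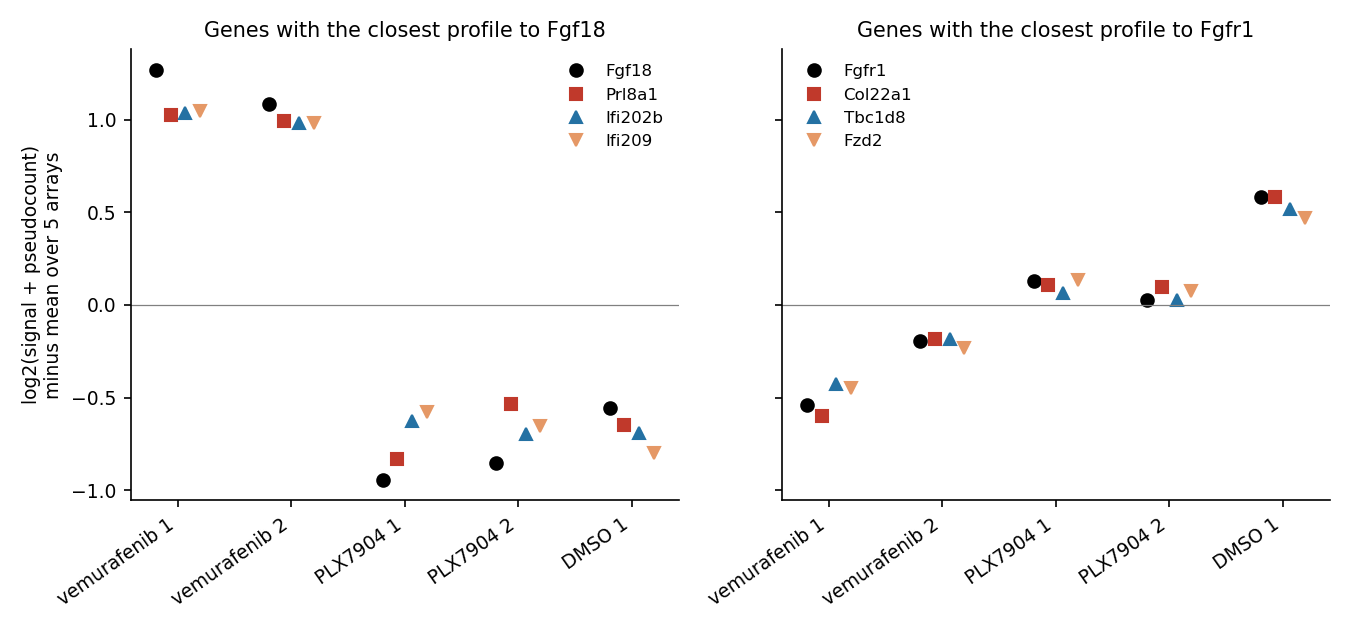
Log2(signal + pseudocount) on each array minus the gene's mean over the 5 arrays, for Fgf18 (left) and Fgfr1 (right) and the 3 genes with the closest profile to each. Fgf18 and its neighbours, at 0.19 to 0.24 from it, are high on both vemurafenib arrays, and Fgfr1 and its neighbours are lowest on the vemurafenib arrays and highest on the DMSO array.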

How the data were processed

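The deposited table holds 1 intensity per probe set and array on a linear scale, made with MAS5 per the submitters' processing notes (version not given in the sources used here). The mean of the middle 96% of each array's values is about 500, a scaling of whole arrays. No detection calls were used. Genes were named from the platform annotation: 34945 probe sets had 1 symbol, 932 several and 9160 none, and all 5 members matched a RefSeq gene table of GRCm38.p6, whose promoter table gave the sequence. A gene was represented by its probe set with the highest mean of the group means. The log2 of signal plus 3.34 (the 10th percentile of all values) was fitted for 10852 genes with a mean of at least 47.4 (the median) by limma 3.58.1 in R 4.3.3, with 3 group means, eBayes with an intensity trend, 2 residual and 8.27 prior degrees of freedom, two-sided tests and Benjamini-Hochberg adjustment within a comparison. Fold changes were taken from log2(signal + pseudocount) values and are too small for dim genes. Other probe sets' errors come from the same model over all probe sets with 1 symbol. The fit was also run on simulated data drawn with its own variance estimates, which cannot test that variance model. Figures used Python 3.11.15 and matplotlib 3.10.9.

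The members, lists and motifs were chosen with earlier results of these data known. Genes named are all members, list genes that passed (otherwise the brightest of a list, in part) and the 3 closest profiles to members spanning over 1. A few others were named after their values were seen (Fgf2, Fgf7, Fgfrl1, Etv4 and Etv5). Alternatives covered pseudocount, filter, normalization, variance model, choice of probe sets, a replicate block and leaving out arrays.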

Additional observations from a re-analysis of the deposited data

How the results depend on the processing

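Fgf18 kept its direction in both comparisons of vemurafenib under every alternative that measured it. Its log2 difference lay between 1.64 and 1.88 against DMSO and between 1.98 and 2.22 against PLX7904, the upper ends with median centring. The members were chosen with these comparisons known, so whether a member's call held or ended is a description and supports nothing. The filter at the 75th percentile removed every member but Fgfbp1. Fgfr1 between vemurafenib and DMSO was -0.80 with median centring and -0.40 with the mean of all probe sets, and reversed to 0.0697 without probe sets of suffix x, s or a, where Fgfr2 had no probe set past the filter. Its call ended in the last 2 and without the intensity trend. With PLX7904 against DMSO, Fgfr1 was 0.00 (-0.0034) with the mean of probe sets and 0.35 without suffixed ones, and between the compounds it was -0.28 without suffixed ones. The mean of probe sets gave Fgfr2 -0.0479 with vemurafenib and -0.085 with PLX7904 against DMSO, and Fgfr3 1.10 with PLX7904 against DMSO and -0.97 between the compounds. Median centring gave Fgfbp1 -0.0525 against DMSO and -0.0083 between the compounds. The cause of these changes was not tested beyond the differing probe sets given above.

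Leaving out 1 array in turn gave, between vemurafenib and DMSO, Fgfr1 at -1.12 to -0.78 and Fgfr2 at -0.84 to -0.27. Between the compounds it gave Fgfr1 at -0.62 to -0.27 and Fgfr2 at -0.29 to 0.29. Genes called between PLX7904 and DMSO numbered 0 to 29 and list genes 0 to 1 (29 and 1 without vemurafenib replicate 1, 27 and 1 without vemurafenib replicate 2). Between the compounds they numbered 900 to 1288 and 6 to 10 (900 and 6 without vemurafenib replicate 1, and 7 list genes without PLX7904 replicate 1).

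Genes called between vemurafenib and DMSO were 1154, but 657 without the filter on signal, 43 without the intensity trend and 443 with the mean of probe sets. List genes were 6, but 1 without the trend (Spry2) and 3 with the mean. Between the compounds 1443 genes became 35 without the trend and 660 with the mean, and 12 list genes became 0 and 5, and 7 without the filter. Crk reversed to -0.0319 with the mean. Between PLX7904 and DMSO 0 genes became 3 with the filter at the 75th percentile, 5 with median centring, 3 with robust fitting, 3 without suffixed probe sets and 4 with the replicate block. There 1 list gene, Spry2, passed with median centring or without suffixed probe sets. The replicate block rests on a shared number only: deviations of vemurafenib replicate 1 and PLX7904 replicate 1 correlated at r = -0.0071 across genes. With it Fgf18 was 1.75 against DMSO and 2.07 between the compounds, no member's call changed, and 1211 and 1583 genes were called. Signal over background was not known, which limits every probe set near or below the filter.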
